A study of Mus musculus with 6 samples.

Results

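Inmt and 7 other genes of small-molecule methyltransferases (Nnmt, Hnmt, Tpmt, Pemt, Gamt, As3mt and Gnmt) were followed in adipose tissue of cavin-3 KO and WT mice. They are 8 of the 19937 genes that could be named on the arrays, and each of the 8 was measured by a single probe set. Inmt was chosen because it is among the named genes with the highest ratio of KO to WT, so its KO against WT values are given as a description with no test. The other 7 genes were listed for what they encode.

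RNA of each mouse was hybridised to a Mouse Gene 1.0 ST array of Affymetrix (6 arrays in all). These arrays carry short probes along the exons of a gene and summarise them as a probe set. KO mice (n = 3) were homozygous for an allele in which a cassette of lacZ fused to neo stands in place of the whole cavin-3 gene (Prkcdbp, now Cavin3). WT mice (n = 3) were the controls, and the study calls its control mice congenic. All were 10 weeks old, on the C57BL/6 background and standard chow, and had been fasted for 6 hours. The KO line of these experiments came from 1 ES cell clone, and the labels do not give the fat depot. The comparison asks which transcripts of adipose tissue change with the loss of cavin-3. Values are log2 of the deposited intensity, which had been normalized by RMA.

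These enzymes all move a methyl group from S-adenosylmethionine to a small acceptor, which leaves S-adenosylhomocysteine. Hydrolysis of S-adenosylhomocysteine gives homocysteine, and the methionine cycle turns that back into methionine. In liver and fat such reactions clear vitamins, amines and drugs, make creatine and phosphatidylcholine, and draw on the supply of methyl groups. Inmt methylates the nitrogen of indoleamines such as tryptamine, and the mouse enzyme is also known as a thioether methyltransferase. Nnmt methylates nicotinamide, and Hnmt inactivates histamine. Tpmt methylates thiopurine drugs, and As3mt methylates arsenite. Pemt makes phosphatidylcholine from phosphatidylethanolamine, Gamt carries out the last step of creatine synthesis, and Gnmt methylates glycine to sarcosine.

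Cavin3, the targeted gene, was at 6.79, 6.78 and 7.12 in KO and at 10.05, 10.90 and 10.45 in WT, a level of 0.0843-fold in KO (adjusted p = 0.0409 from limma). Its difference was -3.78 to -3.35 on the log2 scale under 20 alternative settings, but 11 of the 19 that gave an adjusted p did not call it (adjusted p 0.0722 to 1 in these), among them the omission of any single array other than WT replicate 1. The adipocyte marker list (9 genes measured, all above the median signal of the table) had a mean of 11.98 to 12.08 on the KO arrays and 11.89 to 12.06 on the WT arrays. KO replicate 3 and WT replicate 2 stood apart from the other arrays. Xist, the RNA of the inactive X chromosome, was at 11.34 in KO replicate 3 and 11.14 in WT replicate 2, while the remaining 4 arrays lay between 3.70 and 6.30. The Y-linked gene Uty was at 3.21 in KO replicate 3 and 3.36 in WT replicate 2, against 7.89 to 8.14 on the others. Of 2 further Y-linked genes, Kdm5d was at 4.52 in KO replicate 3 and 4.45 in WT replicate 2, against 7.84 to 8.08 on the others. Eif2s3y was at 2.92 and 3.16, against 6.77 to 8.89. High Xist with low Y-linked RNA is the pattern of female tissue. The methods, however, state that only male animals were analysed, and the sample labels give no sex. Results are therefore also given without this pair of arrays.

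The sequence before the start site of Inmt is shown because Inmt is the gene of the group whose KO and WT values stood apart. It is the RefSeq sequence of chr6:55174991-55175240 (GRCm38.p6, minus strand, 5′ to 3′), the 250 bases that precede the annotated start. Capitals mark the 6-letter motif TATAAA.
Inmt upstream sequence: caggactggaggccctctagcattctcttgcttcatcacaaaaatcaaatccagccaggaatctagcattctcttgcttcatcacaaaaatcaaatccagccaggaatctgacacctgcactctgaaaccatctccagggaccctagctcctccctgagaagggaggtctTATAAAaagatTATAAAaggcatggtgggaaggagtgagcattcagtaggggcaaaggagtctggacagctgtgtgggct
The motif begins 80 and 69 bases before the start. A search of both strands found it in 12.4% of the 32851 upstream windows of this length in the table. Of the 8 windows of 7 genes of the group, only that of Inmt held it. The Inmt window also holds a direct repeat of 46 bases, whose copies begin at its bases 16 and 62. The arrays do not measure where transcription starts, and a match of letters is no evidence of a binding site.

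Inmt had log2 intensities of 10.27, 10.02 and 10.10 in KO replicates 1 to 3, and of 9.72, 8.36 and 7.96 in WT replicates 1 to 3. The 3 KO arrays lay close together and above all 3 WT arrays, with 0.30 between the lowest KO and the highest WT array. Inmt averaged 10.13 ± 0.13 in KO and 8.68 ± 0.92 in WT (SD, n = 3 each), a difference of 1.45 on the log2 scale or a 2.74-fold higher level in KO. This was the highest ratio of KO to WT among the 19937 genes with a probe set of their own. It is what Inmt was chosen for. Of these genes, 6 (0.0301%) were above 2-fold higher in KO. Probe sets with several symbols or none were not ranked, and the study's own list of raised genes has a predicted gene above Inmt. In bulk tissue, a change in the share of the cells that express Inmt and a change in the Inmt RNA per cell cannot be told apart.

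The spread of Inmt lay almost wholly in WT. Its range was 0.25 over the KO arrays and 1.76 over the WT arrays, so the range within WT exceeded the difference between the genotypes. The SD of Inmt in KO was above that of 50.7% of genes, and its SD in WT above that of 98.1%. WT replicate 1 was nearest to KO and WT replicate 3 farthest from it. Leaving out WT replicate 1 gave a fold of 3.92, leaving out WT replicate 2 one of 2.45 and leaving out WT replicate 3 one of 2.14. The fold was 2.61, 2.84 and 2.77 when KO replicate 1, 2 or 3 was omitted. With KO replicate 3 and WT replicate 2 both left out, Inmt was at 2.47-fold. It was above 2-fold in KO in each of these fits.

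**Figure D1:**
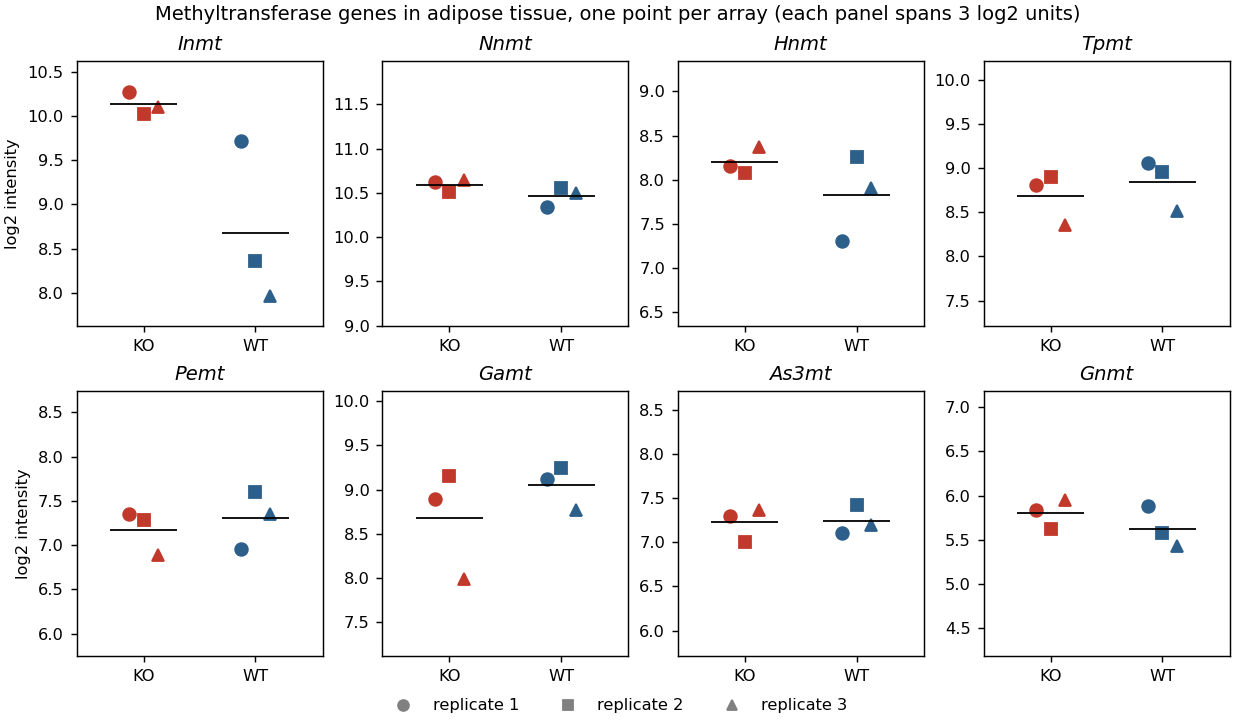
Log2 intensity of the 8 genes on each array, KO left and WT right in each panel, with 1 symbol per replicate and a line at the group mean. The KO points of Inmt (10.02 to 10.27) lie above its WT points (7.96 to 9.72), and the points of every other gene overlap between genotypes.

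By limma, none of the other 7 genes was called at an adjusted p of 0.05 (adjusted p = 0.99999 for each over all 34760 probe sets, where 0.00575% of probe sets were called). None had an unadjusted p under 0.05 in limma, where 0.838% of genes did, and none had one or passed after adjustment with the methods' t-test. The KO and WT values of all 7 overlapped, against 4.61% of all genes whose values did not. Of the 7 genes, 3 were higher and 4 lower in KO, with a median difference of -0.02 beside 0.0009 over all genes. The intervals given with each gene bound the difference that 3 arrays per genotype could have missed, and a p above the threshold does not show equal levels.

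Nnmt, which consumes nicotinamide and is well known in fat, was the steadiest of the 8. Its log2 intensity was 10.62, 10.51 and 10.64 in KO and 10.34, 10.55 and 10.49 in WT. KO replicate 2 lay among the WT values. The KO level was 1.09-fold of WT, with a 95% interval of 0.931 to 1.28.

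Hnmt, the cytosolic enzyme that ends histamine action, was at 8.15, 8.08 and 8.37 in KO and 7.31, 8.26 and 7.90 in WT. WT replicate 1 was the low array, and WT replicate 2 lay within the KO range. The fold was 1.30 (95% interval 0.868 to 1.94), the highest of the 7, and 1.09 without WT replicate 1.

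Gnmt, an abundant enzyme of liver that disposes of excess S-adenosylmethionine, was at 5.84, 5.62 and 5.94 in KO and 5.88, 5.58 and 5.42 in WT. It was the only gene of the 8 with a mean below the median signal of the table, 6.10. WT replicate 1 lay within the KO range, and the fold was 1.13 (0.879 to 1.45).

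Gamt had the widest interval of the 7. It was at 8.89, 9.15 and 7.99 in KO and 9.12, 9.24 and 8.77 in WT, so KO replicate 3 stood well below the other 5 arrays. The fold was 0.775 (95% interval 0.463 to 1.30) with all arrays and 0.983 without KO replicate 3.

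Tpmt was at 8.80, 8.90 and 8.36 in KO and 9.06, 8.96 and 8.52 in WT, with replicate 3 the low array of each genotype. The fold was 0.898 (0.642 to 1.26). Pemt was at 7.35, 7.28 and 6.89 in KO and 6.96, 7.60 and 7.35 in WT, with a fold of 0.912 (0.653 to 1.28). KO replicate 3 was the lowest of the 6 arrays for Gamt, Tpmt and Pemt alike. As3mt was at 7.30, 7.003 and 7.37 in KO and 7.10, 7.42 and 7.20 in WT, and its fold of 0.989 (0.785 to 1.25) was the nearest to 1 of the group.

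The 4 genes that were lower in KO were not lower without the pair of arrays with high Xist. With KO replicate 3 and WT replicate 2 left out, Gamt was at 1.05-fold, Pemt at 1.12-fold, Tpmt at 1.05-fold and As3mt at 1.002-fold. Nnmt, Hnmt and Gnmt were at 1.11-fold, 1.42-fold and 1.06-fold in that fit. The adjusted p from limma was 0.9996 for each of the 7. Leaving out KO replicate 3 alone gave 1.01-fold for Tpmt and Pemt, 0.983-fold for Gamt and 0.941-fold for As3mt. Without KO replicate 2 and WT replicate 1, Gamt was at 0.676-fold, Pemt at 0.780-fold, Tpmt at 0.898-fold and As3mt at 1.02-fold. Without KO replicate 1 and WT replicate 3, they were at 0.655-fold, 0.872-fold, 0.770-fold and 0.950-fold. The part of sex in these changes was not tested.

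**Figure D2:**
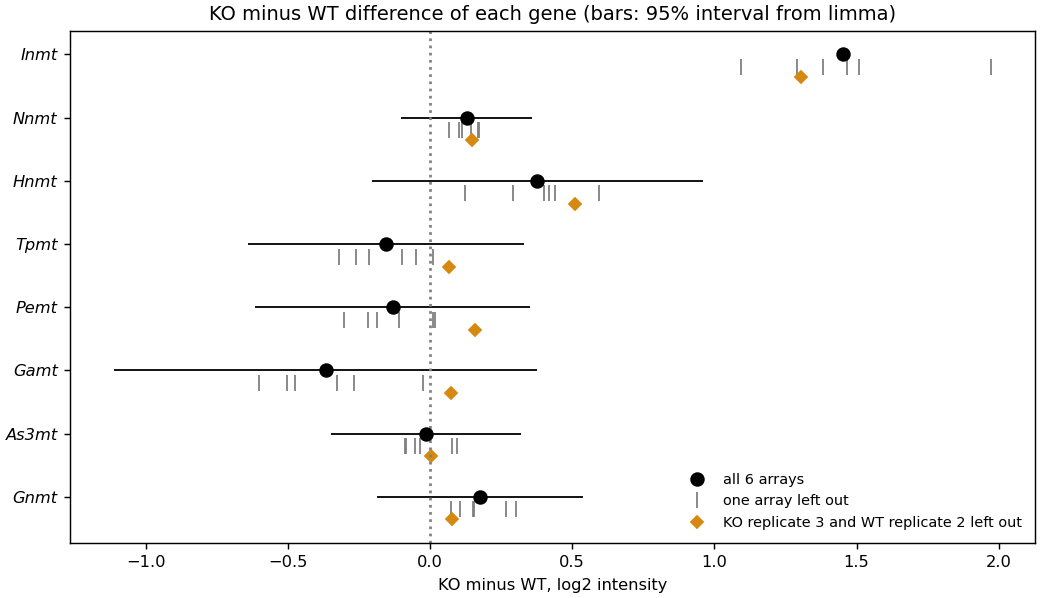
KO minus WT difference of each gene on the log2 scale with all 6 arrays (circles), with each array left out in turn (ticks) and with KO replicate 3 and WT replicate 2 left out (diamonds). Bars are 95% intervals from limma and are not drawn for Inmt, which was chosen on this difference. Inmt stays above 1 throughout, and the intervals of the other 7 genes all include 0.

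Genes whose pattern over the 6 arrays was most like that of Inmt were sought among 804 genes with a mean above the median signal and a range of at least 1 on the log2 scale. Likeness was Pearson's r over the 6 arrays, as a description, and the arrays share the genotype split on which Inmt was chosen. The highest were Ctxn1, which encodes cortexin 1 (0.79), Atp1b1, a subunit of the sodium pump (0.79), Patj, a scaffold of epithelial polarity (0.77), the apolipoprotein genes Apoa2 and Apoa1 (0.76 each) and Kcnmb1, a potassium channel subunit of smooth muscle (0.75). Apoa2 was at 7.50, 6.32 and 7.40 in KO and 6.75, 6.45 and 5.93 in WT, so it did not separate the genotypes as Inmt did. The lowest r belonged to the targeted gene Cavin3 (-0.85), Trem2, a receptor of macrophages (-0.79), and Lrmda (-0.72). Trem2 and Lrmda were highest in WT replicate 3, at 8.17 and 9.29, against 6.53 to 6.87 and 6.57 to 6.63 on the other 5 arrays. WT replicate 3 was also the array with the lowest Inmt. Among the other genes of the group, r with Inmt was 0.82 for Gnmt, which was outside the 804 both by its signal and by its range of 0.52, and between -0.57 for Pemt and 0.21 for Nnmt for the rest.

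Markers of other cell types and tissues moved between arrays as well. The 11 liver genes, among them Alb and Ttr, had list means of 6.66, 5.40 and 6.19 in KO and 5.76, 5.48 and 5.02 in WT. All 11 were higher in KO (median difference 0.67), where 50.3% of all genes were higher at any size. All 11 were also highest in KO replicate 1, so they are not separate pieces of evidence. By limma 0 of the 11 were called (0.00575% of probe sets were). The KO and WT values of 1, Apoh, did not overlap (4.61% of all genes). Of the 11, 2 had a mean above the median signal of the table. Omitting KO replicate 1 gave a median of 0.39 (10 of 11 higher), omitting KO replicate 2 one of 1.07 and omitting WT replicate 3 one of 0.46. With KO replicate 1 and WT replicate 3 both omitted it was 0.21 (9 of 11 higher). Like Inmt, the liver list was highest in KO replicate 1 and lowest in WT replicate 3, but KO replicate 2 was below WT replicates 1 and 2 for the liver list and above all WT arrays for Inmt. The 6 smooth muscle genes had list means of 8.06, 10.85 and 9.24 in KO and 10.99, 9.68 and 8.67 in WT. Adam7, a gene of the epididymis list picked out after its values were seen, was at 4.51, 9.19 and 3.75 in KO and 10.33, 3.67 and 3.79 in WT. Smooth muscle genes and Adam7 were highest in WT replicate 1, the WT array with the most Inmt, and next in KO replicate 2. The other 4 epididymis genes lay between 3.29 and 4.91 on all arrays, and 0 of the 5 had a mean above the median signal. The list mean of the 7 skeletal muscle genes was highest in KO replicate 3 (9.27) and WT replicate 2 (9.15), against 6.57 to 7.35 elsewhere. The part of these tissues in the level of Inmt was not tested.

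The 5 urothelium genes had list means of 5.68, 6.50 and 5.77 in KO and 6.55, 8.31 and 5.68 in WT, so WT replicate 2 stood above the other arrays. All 5 were lower in KO (median difference -0.81), and 4 of 5 without WT replicate 2 (median -0.16). By limma 0 of the 5 were called (0.00575% of probe sets were). The values that follow are also list means on single arrays, not levels of single genes. Stromal progenitor genes (9 measured) ranged over 9.73 to 10.30 in KO and 9.90 to 10.12 in WT. Endothelial genes (8) ranged over 9.46 to 9.56 in KO and 9.22 to 9.69 in WT, and macrophage genes (8) over 8.69 to 8.85 in KO and 8.65 to 9.09 in WT. Mesothelial genes (7) ranged over 8.11 to 8.67 in KO and 8.23 to 8.85 in WT. Mast cell genes (7), which bear on the histamine handled by Hnmt, ranged over 5.16 to 5.69 in KO and 5.27 to 5.34 in WT. Lymphocyte genes (5) ranged over 4.61 to 4.85 in KO and 4.79 to 4.99 in WT. Brown and beige adipocyte genes (6) were at 7.62 in KO replicate 3 and 7.68 in WT replicate 2 against 5.46 to 5.81 elsewhere.

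**Figure D3:**
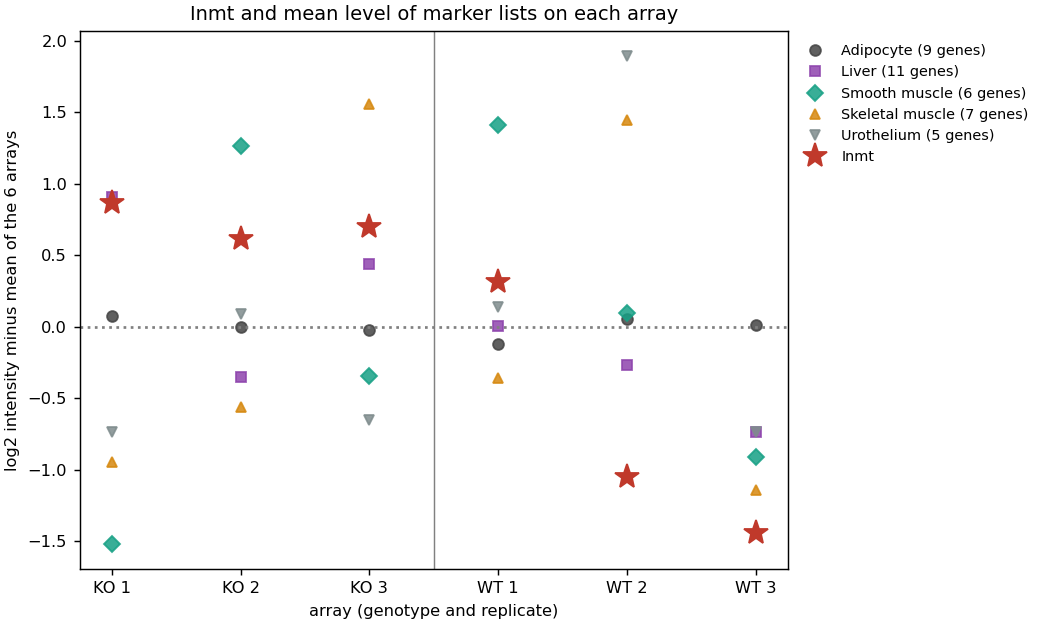
Inmt (stars) and the mean of 5 marker lists on each array, as log2 intensity minus the mean of the 6 arrays, KO arrays left and WT arrays right. Inmt is above its mean on the 3 KO arrays and WT replicate 1, the liver list is highest in KO replicate 1 and lowest in WT replicate 3, the urothelium list is highest in WT replicate 2, and the adipocyte list hardly moves.

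The genes around these reactions were taken from 12 lists of 122 genes, of which 106 were measured. None of the 106 was called by limma (0.00575% of probe sets were), and none had an unadjusted p under 0.05. By the methods' t-test 1 had such a p (Mthfd2l), beside 759 of all 34760 probe sets, and none passed after adjustment. Of the 106 genes, 50 were higher and 56 lower in KO, with a median of -0.005. The KO and WT values of 3 genes did not overlap, which is 2.83% beside 4.61% of all genes. These were Agxt, an enzyme of glyoxylate removal (1.16-fold, 95% interval 0.969 to 1.38), Mthfd2l, a mitochondrial folate enzyme (0.886-fold, 0.765 to 1.03), and Qprt, of NAD synthesis from tryptophan (0.929-fold, 0.808 to 1.07). Agxt (mean 3.87) and Qprt (mean 5.93) were below the median signal of the table. The other fold values below are given with 95% intervals, and each has an adjusted p of 0.99999 from limma. The medians of 10 of the 12 lists changed sign when single arrays were left out, so their splits are counts with no stable direction. The 2 that kept their sign without single arrays were the other small-molecule methyltransferases (0.04 to 0.26) and folate one-carbon metabolism (-0.15 to -0.03). The medians of all 12 then lay between -0.18 and 0.26. With KO replicate 2 and WT replicate 1 both left out, the median of the other small-molecule methyltransferases was -0.0038 (3 higher, 3 lower).

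Of 6 other small-molecule methyltransferases, 5 were higher and 1 lower in KO (median difference 0.09). The split was 3 to 3 without WT replicate 1 or without WT replicate 3 (median 0.04 in both), and the median was 0.26 without WT replicate 2. Mettl7a1, a thiol methyltransferase by its human counterparts, was at 11.09, 10.74 and 11.01 in KO and 10.28, 10.49 and 10.86 in WT. Only WT replicate 3 reached the KO values, and the fold was 1.32 (0.990 to 1.77). Pnmt, which makes adrenaline from noradrenaline and is related in sequence to Inmt and Nnmt, was dim and at 0.872-fold (0.467 to 1.63). Carnmt1, which methylates carnosine, was at 1.10-fold (0.874 to 1.39).

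The supply of methyl groups showed no shared direction. In the methionine cycle 6 of 10 genes were higher and 4 lower (median 0.02), with Mat1a, the S-adenosylmethionine synthetase of liver, at 1.28-fold (0.814 to 1.998) and Mat2b, the regulatory subunit of the other synthetase, at 0.939-fold (0.816 to 1.08). Mat1a was dim (mean 4.86) and was highest in KO replicate 1, like the liver list. In folate one-carbon metabolism 3 of 10 genes were higher and 7 lower (median -0.06), with Shmt1 at 1.16-fold (0.869 to 1.56) and Mthfd1 at 0.914-fold (0.754 to 1.11). Mthfd2, a mitochondrial enzyme of this pathway picked out after its values were seen, was at 6.90, 7.55 and 6.03 in KO and 8.54, 6.61 and 6.77 in WT, highest in WT replicate 1 and next in KO replicate 2.

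The lists tied to single members lay close to the median of all genes. Of the 12 indoleamine genes only 2, and of the 8 histamine genes only 1, had a mean above the median signal of the table. The genes Tdo2, Slc18a1, Aoc1 and Hrh4 named here were below it. For Inmt, 4 of 12 indoleamine genes were higher and 8 lower (median -0.01), with Tdo2, which opens the ring of tryptophan, at 1.20-fold (0.609 to 2.37) and Slc18a1, a vesicular monoamine transporter, at 0.906-fold (0.472 to 1.74). For Nnmt, 9 of 14 genes of nicotinamide and NAD were higher and 5 lower (median 0.03), with Nmnat1, of the nuclear step of NAD synthesis, at 1.21-fold (0.825 to 1.77). For Hnmt, 4 of 8 histamine genes were higher and 4 lower (median -0.01), and Aoc1, the diamine oxidase that also degrades histamine, was at 1.35-fold (0.584 to 3.10) and Hrh4, a histamine receptor, at 0.917-fold (0.703 to 1.20). For Tpmt, 2 of 6 thiopurine genes were higher and 4 lower (median -0.005), with Xdh, xanthine dehydrogenase, at 1.06-fold (0.870 to 1.28) and Nt5c2, a cytosolic nucleotidase, at 0.941-fold (0.809 to 1.09).

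For Pemt, 5 of 11 genes of phosphatidylcholine synthesis were higher and 6 lower (median -0.02). Cept1, of the last step of the CDP-choline route, was at 1.11-fold (0.875 to 1.40) and Pcyt1a, its rate-limiting enzyme, at 0.924-fold (0.760 to 1.12). For Gamt, 1 of 6 creatine genes was higher and 5 lower (median -0.05). Gatm, which precedes Gamt in creatine synthesis, was at 7.98, 8.29 and 7.66 in KO and 8.43, 7.75 and 8.96 in WT. The groups overlapped and the fold was 0.756 (0.442 to 1.29), close to the 0.775 of Gamt, but its lowest WT array, replicate 2, was the highest array for Gamt. Slc6a8, the creatine transporter, was at 1.05-fold (0.708 to 1.55). For As3mt, 6 of 11 genes of arsenic and glutathione handling were higher and 5 lower (median 0.02), with Txn1, thioredoxin, at 1.01-fold (0.891 to 1.15) and Gsr, glutathione reductase, at 0.899-fold (0.702 to 1.15). For Gnmt, 4 of 8 genes of glycine and sarcosine were higher and 4 lower (median -0.02), with Sardh, which returns sarcosine to glycine, at 0.889-fold (0.672 to 1.18). Of 4 polyamine genes 1 was higher and 3 lower (median -0.01), with Odc1, of the first step of polyamine synthesis, at 1.03-fold (0.787 to 1.34) and Sat1, which acetylates polyamines for breakdown or export, at 0.967-fold (0.598 to 1.56).

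**Figure D4:**
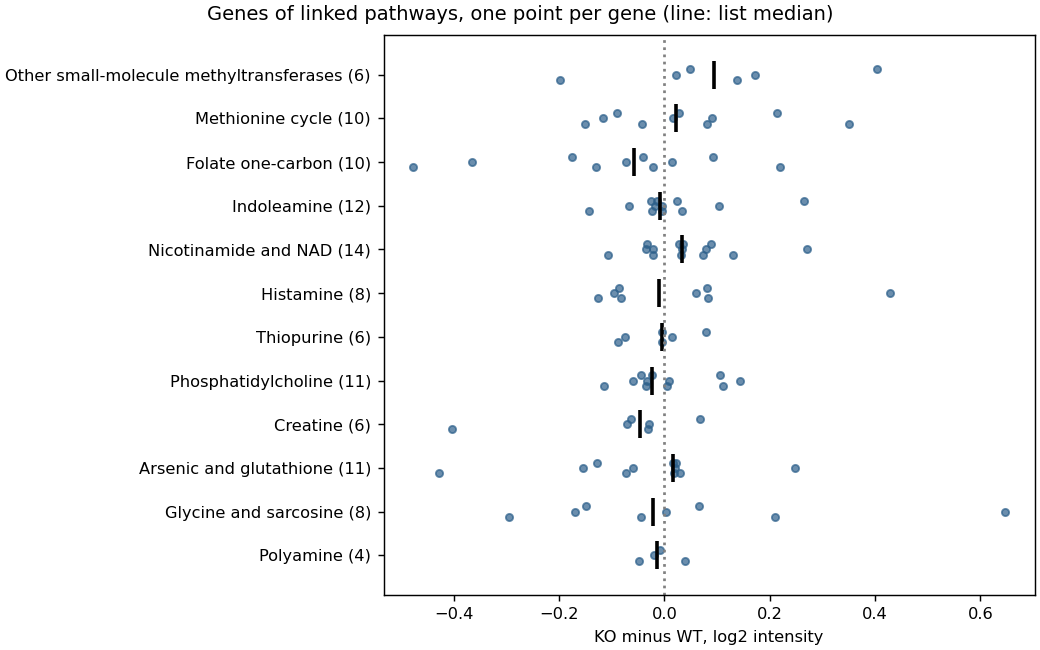
KO minus WT difference on the log2 scale of each measured gene in the 12 lists around the methyltransferases, with the number of genes in brackets and a line at each median. The list medians lie between -0.06 and 0.09.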

How the data were processed

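Adipose RNA of 3 KO and 3 WT mice was amplified as cDNA, labelled with biotin and hybridised by the authors to Mouse Gene 1.0 ST arrays. The deposited values are linear intensity values per probe set. The authors processed the scans with GenePattern modules, and the submitters' processing notes name RMA (background correction, quantile normalization, probe set summary). Its version and the genome build are not given in the sources used here. Median intensity was 68.4 to 69.4 on the KO arrays and 67.1 to 70.8 on the WT arrays. Signal over background was not judged, since no scanner files were analysed here, and the number of arrays limits the precision (median standard error of a difference 0.13 on the log2 scale).

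Intensities were taken to log2 with no pseudocount. The fit of KO against WT used limma 3.58.1 (lmFit, eBayes) in R 4.3.3 over all 34760 probe sets, with no covariate and Benjamini-Hochberg adjustment, two-sided. Adjusted p-values in the text come from this fit. Probe sets with 1 gene symbol (21640) were named from the platform annotation, 1321 had several symbols and 11799 were not listed there. The probe set with the highest mean stood for a gene. Symbols of 21620 of the 21640 were found in the RefSeq table (GRCm38.p6). The members, gene lists and tests were chosen with earlier results of these data known. Named genes were all 8 members, the targeted and sex-linked genes, the genes with the smallest unadjusted p of a list in each direction (up to 2), and the 6 genes most and 3 genes least like Inmt. Agxt, Mthfd2l and Qprt were also the genes of the lists whose groups did not overlap. Genes without a probe set of their own were not analysed here.

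Alternatives were the methods' t-test (Student) on log2 and linear values, differences of medians, renewed quantile normalization or centring on array medians, fits on the brighter or on the single-symbol probe sets, a robust variance trend, weighted arrays, blocking on the replicate number, averaging each gene's probe sets, and omitting arrays singly and in 3 pairs. The study states that the 3 arrays of a genotype are separate mice. The procedure was tested on simulated data.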

Additional observations from a re-analysis of the deposited data

How the results depend on the processing

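Under the 20 alternatives Inmt had differences of 1.02 to 2.03 on the log2 scale (1.09 to 1.97 without single arrays) and 2.03-fold to 4.08-fold. The lowest was without KO replicate 1 and WT replicate 3 and the highest without KO replicate 2 and WT replicate 1. All KO values of Inmt lay above all its WT values, so leaving out arrays could not reverse its direction. Settings that change only the variance, the blocking or the probe sets tested repeat the main difference of each gene they include. Nnmt and Hnmt kept their direction in 20 of 20 alternatives and Gnmt in 19 of 19 (it is too dim for the filter on signal). None of the 7 genes other than Inmt was called under any alternative (smallest adjusted p 0.9996, limma or the methods' t-test).

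Of the 139 differences of these 7 genes under the alternatives, 12 changed sign. The 139 include the settings that repeat the main difference and so could not change its sign. Averaging probe sets is among them, since each gene has 1 probe set. As3mt was at 0.10 by group medians and 0.0249 without KO replicate 2 and WT replicate 1, and Tpmt was at 0.0602 with array weights. Without KO replicate 3 and WT replicate 2, Tpmt was at 0.0648, Pemt at 0.16, Gamt at 0.0733 and As3mt at 0.0033. Without single arrays As3mt ranged over -0.0884 to 0.0947, Tpmt over -0.32 to 0.0090 and Pemt over -0.30 to 0.0166.

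The count of probe sets past an adjusted p of 0.05 was 2 with all arrays (677 with an unadjusted p under 0.05), 1 to 2 without single arrays and 1 among single-symbol probe sets. It was 0 for log2 values with the methods' t-test (759 with an unadjusted p under 0.05) and on linear values (753), 0 without each of the 3 pairs of arrays (653 to 997) and 0 with the replicate block (698). The replicate numbers showed no sign of pairing the samples, though 3 arrays per genotype cannot exclude it. The correlation of deviations from the group means was -0.15, -0.37 and -0.09 between KO and WT arrays of the same number, no array correlated best with its own number (the closest were 0.37 for KO 1 and WT 3, 0.52 for KO 2 and WT 1 and 0.48 for KO 3 and WT 2), and the labels give no shared litter or day for a number. The cause of these changes in count was not tested.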
